A study of Mus musculus with 12 samples.

Results

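Tumours of mice that received anti-PD-1 antibody alone were compared with tumours of untreated mice, by RNA sequencing of the whole tumour. The comparison takes 6 of the 12 libraries of the study, 3 from each group, and uses all genes: the table lists 18433, of which 14144 had enough counts to be tested. All mice were of the BALB/c strain and carried 4T1 cells, a mouse mammary carcinoma line that arose in that strain, injected under the skin of the right flank. The control group has no treatment named in the labels, and the anti-PD-1 group received a blocking antibody against PD-1 into the peritoneal cavity. The other 6 libraries are tumours of mice given DSF by mouth, or DSF and the antibody together. The labels name 5 mice in each of the 4 groups and do not say which mouse gave which library. The p-values here thus measure change against the spread between libraries within the groups, estimated over all 12. The antibody clone, the dose, the times of treatment and of harvest, and the age of the mice are not given in the sources used here.

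PD-1, encoded by Pdcd1, is an inhibitory receptor that T cells display after activation. Its ligands PD-L1 (Cd274) and PD-L2 (Pdcd1lg2) are displayed by tumour cells and myeloid cells, and their binding dampens signalling from the T cell receptor. Antibodies that block the receptor are used to release this brake, and T cells that respond can secrete interferon gamma, which induces class II antigen presentation, the GBP and IRG guanosine triphosphatases and the chemokines Cxcl9 and Cxcl10. A separate family, the type I interferons, induces antiviral genes such as the Ifit and Oas families. The 4T1 model is known for a strong accumulation of neutrophils.

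No gene passed the test between anti-PD-1 and control tumours. Of 14144 genes, 0 were called at an adjusted p under 0.05 by edgeR's quasi-likelihood test with Benjamini-Hochberg adjustment, a background of 0.0%, and the smallest adjusted p was 0.999. An unadjusted p under 0.05 was reached by 245 genes, of which 133 (0.94%) were higher and 112 (0.792%) lower with anti-PD-1, where 707 would be reached if p-values were uniform. DESeq2's Wald test called 0 genes as well, with 284 at an unadjusted p under 0.05 and a smallest adjusted p of 0.0804. The statements below on single genes and gene groups are therefore descriptions of 6 libraries. Their standard errors, p-values and intervals come from the fit of all 12 libraries, so they also carry the spread among DSF and combination tumours. The common coefficient of variation between libraries of a group was 0.277 in that fit and 0.212 in a fit of the 6 libraries alone.

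The libraries were of like depth. The 6 libraries held 16193056 to 16790368 counts and 16062 to 16395 detected genes. Among 11059 genes with a mean of at least 5 CPM (counts scaled to the size of the library), the 95% interval of the log2 fold change reached a median of 0.325 on either side of the estimate, a factor of 1.25. For 10052 of those genes, 90.9%, the whole interval lay within 1 log2 unit of no change. The median log2 fold change over all genes tested was 0.00214, and 50.5% of genes had a positive value.

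The control libraries differed from each other as much as they differed from the treated ones. The median absolute log2 difference between a pair of control libraries was 0.204 to 0.205, against 0.134 to 0.167 between a pair of anti-PD-1 libraries. Between groups it was 0.131 to 0.218. Control 1 lay 0.131 to 0.139 from each of the anti-PD-1 libraries, and thus closer to them than to the other controls. Leaving out control 1 raised the number of genes at an unadjusted p under 0.05 from 245 to 944, with 0 called and a smallest adjusted p of 0.129. Leaving out another library gave 136 to 363 such genes and again 0 called.

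Some counts below say how often 1 library was the highest or lowest of its group. Over all genes tested, anti-PD-1 1, 2 and 3 were the highest treated library for 38.8%, 33.1% and 28.1% of genes and the lowest for 35.6%, 32.5% and 31.8%. Control 1, 2 and 3 were the highest control for 31.9%, 33.3% and 34.8% and the lowest for 34.3%, 33.4% and 32.3%.

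The label of a 4T1 tumour was checked against epithelial markers, which gave a mixed picture. Per kilobase of transcript, the simple-epithelium keratins Krt8 and Krt18 stood at 343 FPKM ± 32.3 and 479.5 FPKM ± 31.3 in controls (SD, n = 3). Epcam, an adhesion protein of epithelial cells, stood at 2.67 FPKM ± 1.10 there, and ranged from 1.39 to 10.6 CPM over the 6 libraries. The other tested genes of the tumour epithelium list had control means from 0.343 FPKM (Ehf) to 8.24 FPKM (Krt7), with Cdh1 at 4.71 FPKM. Only Krt8 and Krt18 of that list were thus high. Markers of skin, fat, muscle and red cells, tissues that border or perfuse a tumour under the skin, varied widely between the libraries. A list score is used for this below: the mean over a list's tested members of log2 CPM, centred on the mean of the 6 libraries.

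**Figure D1:**
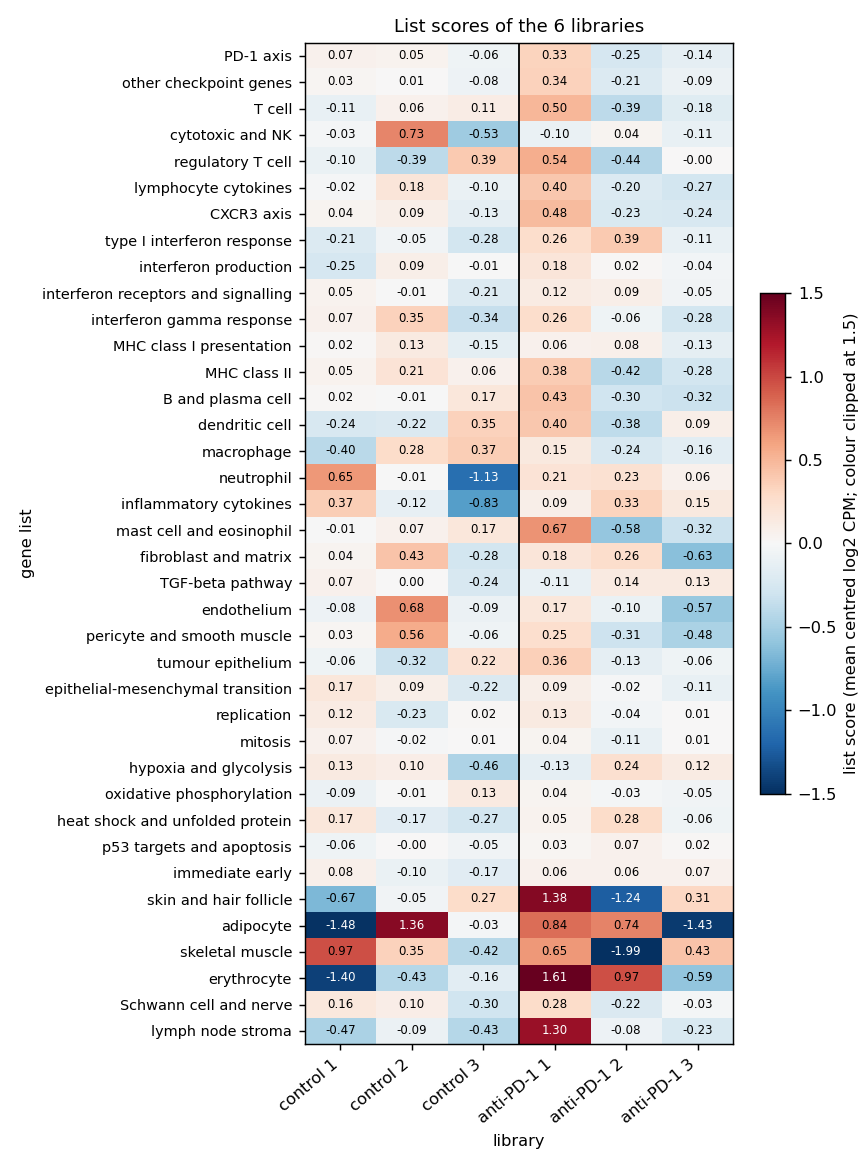
List scores of the 6 libraries (columns) for 38 gene lists (rows), printed in each cell in log2 CPM units and coloured from blue (below the mean of the 6 libraries) to red (above), with colours clipped at the ends of the scale. Anti-PD-1 1 is high for most lymphocyte, class II and skin lists, and in the type I interferon row anti-PD-1 1 and 2 are high while anti-PD-1 3 lies within the range of the controls.

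Antiviral genes induced by type I interferon had higher values with anti-PD-1 in most libraries. The list held 38 tested genes, of which 37 had higher mean values with anti-PD-1 and 1 a lower one. The median log2 fold change was 0.31, against 0.00214 over all genes tested. None of the 38 passed the test over all genes, 15 had an unadjusted p under 0.05 in the higher direction against 0.94% of all genes, and in 12 of 38 every treated library lay above every control, against 2.86% of all genes. In 0 of 38 did every treated library lie below every control, against 2.82%.

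Cmpk2, a nucleotide kinase of mitochondria, had the smallest p of all genes tested. Its level was 37.8, 33.9 and 32.7 CPM in the controls and 70.4, 79.0 and 46.3 CPM in the anti-PD-1 libraries. Every treated library lay above every control, and anti-PD-1 3 was the nearest to them. Its log2 fold change was 0.91 ± 0.18 (SE), with an adjusted p of 0.999 by edgeR's quasi-likelihood test. Its neighbour on chromosome 12, Rsad2, encodes viperin, which makes a chain-terminating nucleotide from CTP. Rsad2 stood at 34.0, 23.3 and 29.4 CPM in controls and at 63.0, 61.3 and 39.6 CPM with the antibody. The order of the libraries was the same as for Cmpk2 in that anti-PD-1 3 was the lowest of the treated, and the groups did not overlap. Rsad2 had a log2 fold change of 0.92 ± 0.24 (SE).

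The Ifit genes encode proteins that bind viral RNA. Ifit2 was measured at 34.7, 23.7 and 32.9 CPM in controls and at 56.2, 45.4 and 41.9 CPM with anti-PD-1, a log2 fold change of 0.65 ± 0.17 (SE). Ifit3 was measured at 20.2, 16.8 and 20.2 CPM and at 41.2, 35.3 and 21.5 CPM, a log2 fold change of 0.78 ± 0.22 (SE). Neither gene had a treated library within the control range, although for Ifit3 the lowest treated library was close to it. Ifit1 stood at 16 to 19.6 CPM in controls and 20.3 to 30.8 CPM in treated tumours. Ifit3b, at 4.52 to 8.89 and 9.09 to 18.1 CPM, did not overlap either. Ifit3 and Ifit3b are near-identical copies, so how the reads were split between them is uncertain.

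Among the sensors of viral RNA, Ifih1 and Ddx58 belong to the list. Ifih1 encodes MDA5, a cytosolic sensor of long double-stranded RNA. Its level was 50.4, 65.8 and 63.4 CPM in controls and 84.0, 95.3 and 77.0 CPM in treated tumours, with a log2 fold change of 0.51 ± 0.12 (SE). Ddx58, which encodes the sensor RIG-I, stood at 80.3, 63.4 and 83.5 CPM and at 99.8, 128 and 88.8 CPM, with a log2 fold change of 0.48 ± 0.14 (SE). For both sensors all treated libraries lay above all controls, with anti-PD-1 2 the highest. Oas1a, which makes the oligoadenylate that activates RNase L, stood at 38.7 to 48.9 CPM and 50.3 to 77.3 CPM. Ddx60, Dtx3l and Parp14 complete the 12 genes without overlap, with log2 fold changes of 0.52, 0.25 and 0.17.

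**Figure D2:**
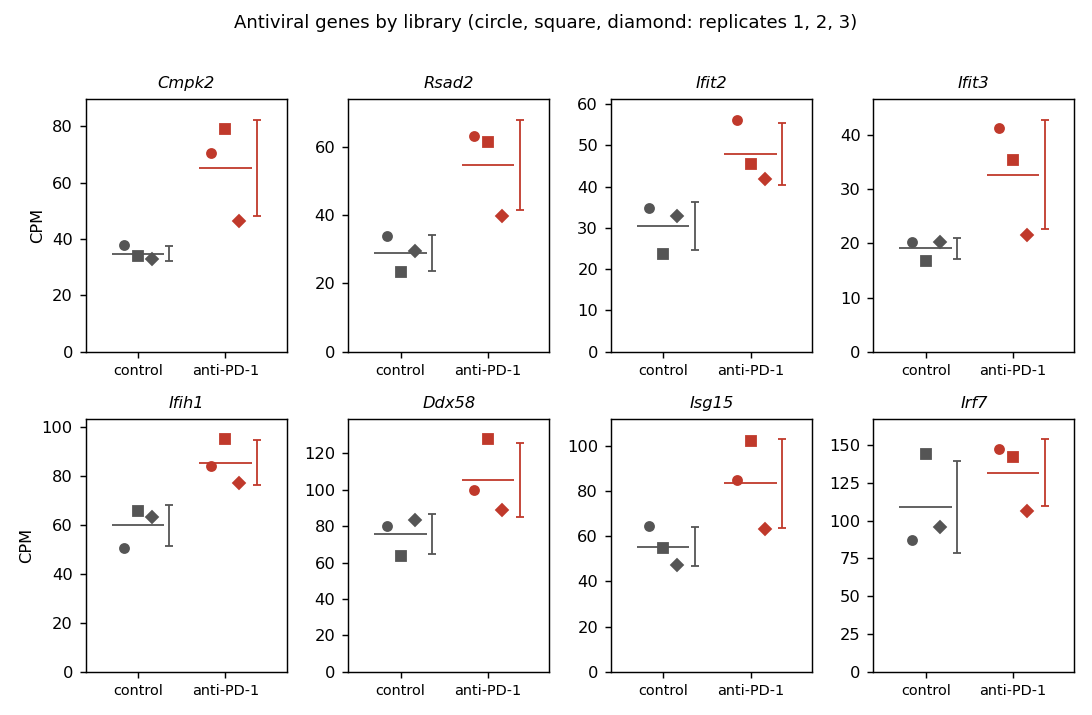
Level in CPM (linear axis from 0) of 8 interferon-induced genes in each of the 6 libraries; circles, squares and diamonds are replicates 1, 2 and 3, horizontal lines are group means and vertical bars the SD of 3 libraries. For Cmpk2, Rsad2, Ifit2, Ifit3, Ifih1 and Ddx58 the groups do not overlap, while for Isg15 and Irf7 they do.

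Other members of the list overlapped. Isg15, a ubiquitin-like modifier, was at 64.3, 54.7 and 47.1 CPM in controls and at 84.8, 102 and 63.1 CPM with anti-PD-1. The lowest treated library, anti-PD-1 3, lay below control 1, and the log2 fold change was 0.59 ± 0.19 (SE). Usp18, which removes Isg15 from proteins and restrains the interferon receptor, had a log2 fold change of 0.59 ± 0.21 (SE). Irf7, the regulator that amplifies interferon production, stood at 87.3, 144 and 95.7 CPM and at 147, 142 and 106 CPM. Control 2 was as high as the treated libraries for Irf7, and the log2 fold change was 0.27 (95% interval -0.16 to 0.71).

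The pattern was uneven among the treated libraries. Anti-PD-1 1 lay above the highest control for 28 of the 38 genes and anti-PD-1 2 for 29 of 38, against 22.7% and 21.0% of all genes. Anti-PD-1 3 did so for 12 of 38, against 19.8% of all genes, and was the lowest of the treated libraries for 36 of 38. The list score was 0.26, 0.39 and -0.11 in the treated libraries and -0.21, -0.05 and -0.28 in the controls, so the score of anti-PD-1 3 lay within the control range. The median log2 fold change of the list stayed between 0.22 and 0.42 when any 1 of the 6 libraries was left out. It was 0.32 with the skin and adipocyte scores of each library in the model. Red cell genes varied alongside, with scores of 1.61, 0.97 and -0.59 in the treated libraries and -1.40, -0.43 and -0.16 in the controls. All 4 tested red cell genes were lowest in anti-PD-1 3 among the treated libraries, and their part in the antiviral values was not tested.

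The interferons themselves were hardly detected. Ifnb1, the gene of interferon beta, had 0 to 3 counts in a library and 8 over all 6, and Ifna4 had 2 in all. The list of sensors, adaptors and regulators of interferon production held 14 tested genes, with 8 higher and 6 lower and a median log2 fold change of 0.05. Beside Ifih1 and Ddx58, Tlr3, the endosomal sensor of double-stranded RNA, was without overlap at 44.8, 46.6 and 47.8 CPM against 54.6, 52.9 and 51.0 CPM. Among other sensors Tlr7 had a log2 fold change of -0.21 and Cgas one of -0.03, and the adaptors Mavs and Tmem173 (STING) had log2 fold changes of -0.13 and -0.11. Of the 14 genes of interferon receptors and signalling 11 were higher, with a median of 0.11, and Usp18 had the smallest p among them. The antiviral list shares 4 tested genes with this list and 5 with that of interferon production, so the counts partly repeat the same genes.

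Sequence near the start of antiviral genes is shown because many genes of the list hold the same motif there. The motif searched was the core of the interferon-stimulated response element, GAAA followed after any 2 bases by GAAA again, on both strands and with overlapping matches allowed, in windows from 250 bases before to 50 after each annotated start from RefSeq (GRCm38.p6). It was present in 3.44% of 32851 windows, and in 3.89% of the 11180 tested genes with an entry. Of the type I interferon list, 14 of the 29 genes with an entry held it, 48.3%. Among the 12 genes without overlap it was in 8 of 11 with an entry, and among the 26 that overlapped in 6 of 18. That split rests on the values of these same libraries, counts the near-identical copies Ifit3 and Ifit3b separately, and was not tested. Among the genes without overlap, the motif lay wholly before the start in Ifit1, Ifit3, Ifit3b, Rsad2, Oas1a and Ddx60. In the others of those 8 the motif did not lie wholly before the start, and in Ifih1 it lay after the start. It was found in 9 of 13 genes of the interferon gamma list, in 0 of 7 class II genes and in 0 of 17 T cell genes. A match is a string of letters, and no occupancy was measured here. The stretches are given 5′ to 3′ on the strand of the gene with the matches in capitals. A match that reads TTTC, 2 bases, TTTC is the same motif on the other strand.
Ifit1 (chr19:34640760-34640819, + strand): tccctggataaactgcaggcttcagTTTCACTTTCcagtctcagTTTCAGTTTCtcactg
Ifit3 (chr19:34583348-34583407, + strand): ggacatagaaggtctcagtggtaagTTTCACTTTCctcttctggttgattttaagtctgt
Ifit3b (chr19:34607744-34607803, + strand): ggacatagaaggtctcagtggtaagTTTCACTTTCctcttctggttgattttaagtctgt
Rsad2 (chr12:26456538-26456597, - strand): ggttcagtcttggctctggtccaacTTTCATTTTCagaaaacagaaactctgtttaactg
Oas1a (chr5:120907526-120907570, - strand): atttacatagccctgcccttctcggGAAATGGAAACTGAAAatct
The stretches of Ifit3 and Ifit3b are the same letter for letter, as their copies are near-identical, and that of Oas1a holds 2 overlapping matches. Cmpk2, with the smallest p, held no match in its window, and Ifit2 held none in its windows.

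Genes induced by interferon gamma had a median close to 0. Of 22 tested members, 7 were higher and 15 lower with anti-PD-1, the median log2 fold change was -0.08, and 0 of 22 lay without overlap, against 5.68% of all genes. Ifng itself was at 4.26, 6.07 and 2.18 CPM in controls and at 3.97, 1.57 and 2.11 CPM with the antibody. The treated libraries were at or below the middle of the controls, with a log2 fold change of -0.71 (95% interval -1.82 to 0.41). Ido1, which degrades tryptophan, had the smallest p of the list, at 9.24 to 13.2 CPM in controls and 22.7, 15.5 and 7.16 CPM in treated tumours. The guanylate-binding proteins ranged from -0.33 for Gbp2 and Gbp4 to 0.03 for Gbp3 and Gbp9. Control 2 was the highest control for 21 of the 22 genes and control 3 the lowest for 21, against 33.3% and 32.3% of all genes. The median moved from -0.26 without control 3 to 0.11 without control 2. Of the chemokines that this interferon induces, Cxcl9 stood at 285 CPM ± 54.4 and 251 CPM ± 89.2 (SD, n = 3) and Cxcl10 had a log2 fold change of 0.27 (95% interval -0.38 to 0.91). The receptor Cxcr3 and these ligands together had a median of 0.03 over 3 genes, or -0.27 without anti-PD-1 1.

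The genes of the blocked pathway overlapped between the groups. Pdcd1 was measured at 3.53, 4.46 and 2.77 CPM in controls and at 6.17, 2.72 and 3.25 CPM with anti-PD-1. One treated library, anti-PD-1 1, lay above the controls and another below them. For Pdcd1 the log2 fold change was 0.17, with a 95% interval from -0.80 to 1.15. Cd274 was at 99.7, 120 and 70.9 CPM in controls and at 119, 107 and 85.7 CPM in treated tumours. All treated values of Cd274 fell between the lowest and the highest control, and the log2 fold change was 0.10 (95% interval -0.40 to 0.60). Per kilobase, Cd274 stood at 28.2 FPKM ± 6.66 in controls and Pdcd1 at 2.08 FPKM ± 0.454 (SD, n = 3). Pdcd1lg2 had a log2 fold change of -0.18 (95% interval -0.82 to 0.46).

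The list of the PD-1 axis held 10 genes: the receptor, its ligands, genes of CD28 and ICOS signalling, and Ptpn6 and Ptpn11, phosphatases that act below PD-1. Of these, 5 were higher and 5 lower, with a median of 0.01 that was -0.24, with 2 higher and 8 lower, without anti-PD-1 1. Cd86, a ligand of CD28 and CTLA-4, had the smallest p of them, at 26.6 CPM ± 1.58 in controls and 22.1 CPM ± 4.13 in treated tumours (SD, n = 3). Among 20 other checkpoint genes 12 were higher and 8 lower, with a median of 0.04. Without anti-PD-1 1 that median was -0.32, with 4 higher and 16 lower, and with the skin and adipocyte scores in the model it was -0.11, with 6 higher and 14 lower. Their members Ctla4 and Lag3 had log2 fold changes of 0.23 and -0.17. Nt5e, which encodes the adenosine-producing enzyme CD73, had the smallest p of that list, with values of 113, 73.1 and 33.0 CPM in controls and 104, 165 and 106 CPM with the antibody. Control 1 lay within the treated range for Nt5e, and the log2 fold change was 0.77 ± 0.37 (SE).

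**Figure D3:**
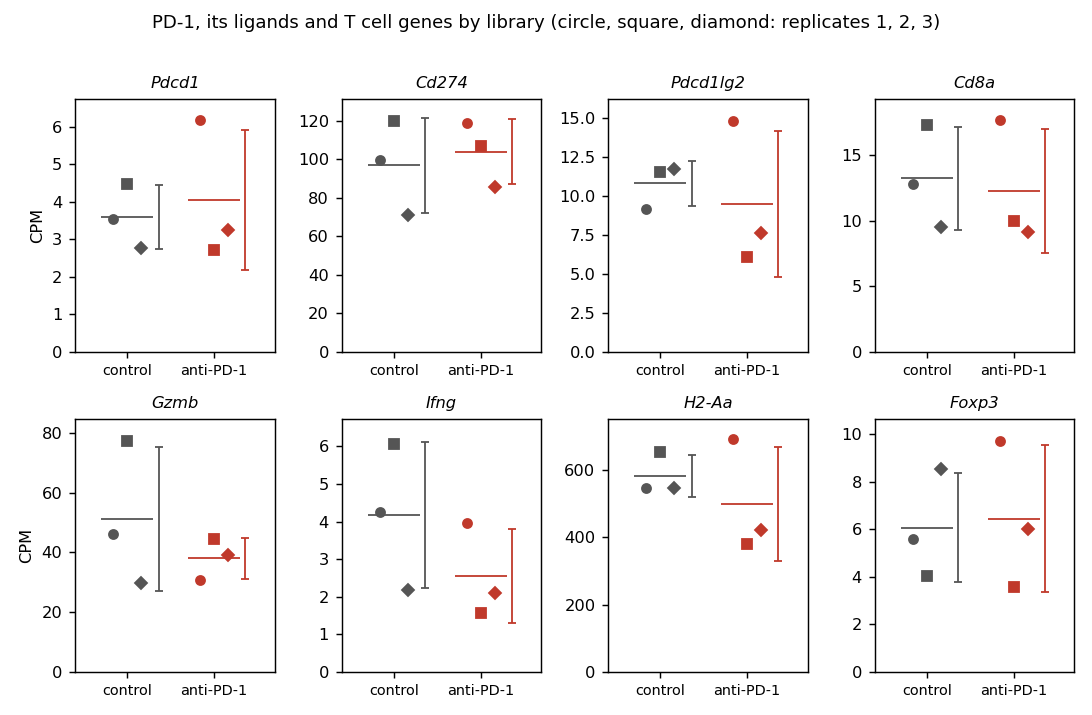
Level in CPM (linear axis from 0) of PD-1, its ligands and 5 lymphocyte and class II genes in each of the 6 libraries; circles, squares and diamonds are replicates 1, 2 and 3, horizontal lines are group means and vertical bars the SD of 3 libraries. The groups overlap for all 8 genes, and anti-PD-1 1 is the highest treated library for 7 of them, Gzmb being the exception.

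T cell genes did not separate the groups. Of 24 tested genes, 11 were higher and 13 lower with anti-PD-1, with a median log2 fold change of -0.03. Cd8a, the co-receptor of cytotoxic T cells, was at 12.8, 17.3 and 9.53 CPM in controls and at 17.7, 9.98 and 9.15 CPM in treated tumours. Here anti-PD-1 1 was at the level of the highest control and anti-PD-1 2 and 3 at that of the lowest. The log2 fold change of Cd8a was -0.11 (95% interval -0.90 to 0.69), and that of Cd4 was 0.06 (95% interval -0.70 to 0.81). In whole tumours, fewer cells of a type and less RNA per cell cannot be told apart.

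The treated libraries disagreed with each other on T cell genes. The score was 0.50 in anti-PD-1 1, -0.39 in anti-PD-1 2 and -0.18 in anti-PD-1 3, against -0.11 to 0.11 in controls. Anti-PD-1 1 was the highest treated library for 22 of 24 genes, against 38.8% of all genes, and lay above all controls for 17 of 24, against 22.7%. The median was -0.37 without anti-PD-1 1 and 0.18 without anti-PD-1 2. The same library had the highest skin score, 1.38, and the highest score for lymph node stroma, 1.30. Ccl21a, a chemokine of lymphatic vessels and lymph node stroma, was at 18.9 CPM in anti-PD-1 1 and at 1.94 to 4.27 CPM in the other 5 libraries. With the skin and adipocyte scores in the model the T cell median was -0.20, with 6 genes higher and 18 lower. The part of lymph node stroma in the T cell values was not tested.

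Cytotoxic and natural killer genes were highest in a control. Of 19 genes 6 were higher and 13 lower with anti-PD-1, with a median of -0.08. Gzmb, the granule protease granzyme B, was at 46.2, 77.5 and 29.9 CPM in controls and at 30.8, 44.5 and 39.0 CPM in treated tumours. Control 2 stood above the rest, and it was the highest control for 19 of 19 genes of the list, against 33.3% of all genes. The log2 fold change of Gzmb was -0.43 (95% interval -1.09 to 0.24). Prf1, the pore-forming protein perforin, was at 0.03 (95% interval -0.94 to 0.99), and Gzma, with the smallest p, at -0.59 (95% interval -1.32 to 0.14). The median of the list was 0.33 without control 2 and -0.40 without control 3.

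Regulatory T cell and other lymphocyte lists were as mixed. Foxp3, the transcription factor of regulatory T cells, was at 5.6, 4.02 and 8.53 CPM in controls and at 9.72, 3.57 and 6.02 CPM with the antibody, a log2 fold change of 0.09 (95% interval -0.96 to 1.13). Of 10 regulatory T cell genes 7 were higher, with a median of 0.13 that was -0.22 without anti-PD-1 1, and Lrrc32, an anchor of latent TGF-beta, had the smallest p. The 11 cytokine genes of lymphocytes had a median of -0.03, or -0.31 without anti-PD-1 1, with Xcl1, a chemokine of activated T and NK cells, at 0.372 to 0.609 CPM in controls and 0.602 to 1.84 CPM with the antibody. B and plasma cell genes had a median of 0.10 over 7 genes, or -0.44 without anti-PD-1 1, at low counts throughout.

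Antigen presentation genes gave no separation either. The 17 class I genes had a median log2 fold change of 0.02, with 11 higher and 6 lower. H2-K1, a classical class I heavy chain, stood at 2279 CPM ± 148 in controls and 2310 CPM ± 215 in treated tumours (SD, n = 3), with a 95% interval of the log2 fold change from -0.30 to 0.34. H2-M3, a non-classical class I gene, had the smallest p of the list. Of the 10 class II genes, 9 were lower and 1 higher, with a median of -0.17. H2-Aa, a class II chain, was at 548, 655 and 547 CPM in controls and at 692, 381 and 421 CPM with anti-PD-1. Anti-PD-1 1 lay above all controls and the other treated libraries lay below all of them. For H2-Aa the log2 fold change was -0.23 (95% interval -0.72 to 0.26), and that of H2-Ab1, with the smallest p, was -0.34 (95% interval -0.88 to 0.19). Ciita, the master regulator of class II genes, had a log2 fold change of -0.08 (95% interval -0.64 to 0.47). The class II median was -0.45 without anti-PD-1 1 and -0.04 without anti-PD-1 3.

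**Figure D4:**
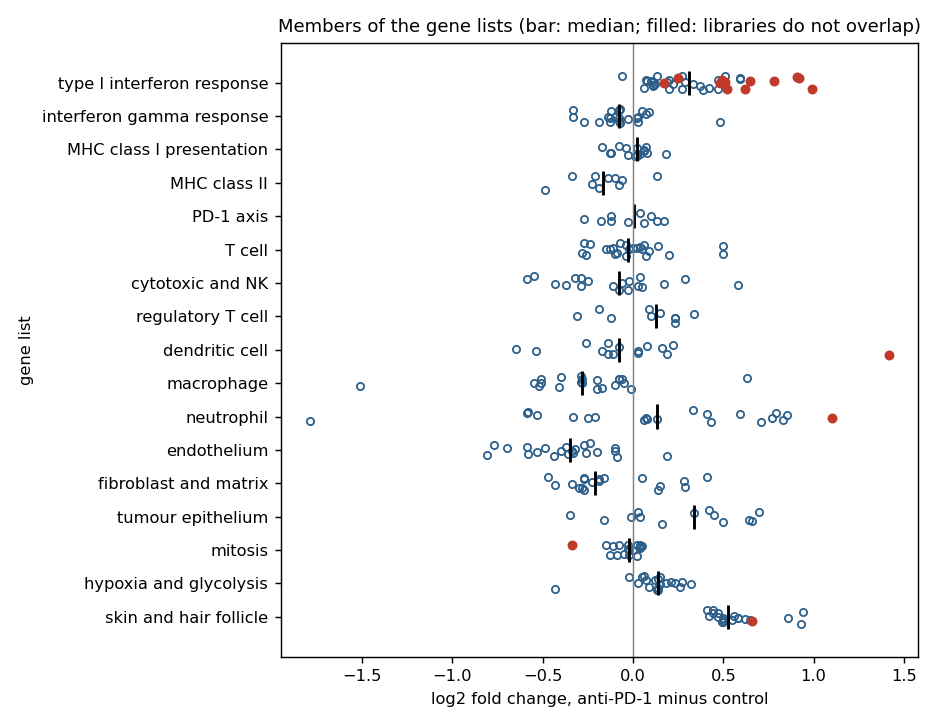
Log2 fold change of anti-PD-1 minus control for each tested member (circles) of 17 gene lists, with the median as a bar; filled circles mark genes whose libraries do not overlap between the groups. The type I interferon list, with a median of 0.31, holds 12 of the filled circles, and its members lie to the right of 0 with 1 exception.

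Macrophage genes had lower means with anti-PD-1 in a way that depended on a control. Of 21 genes, 20 were lower and 1, Nos2, higher, with a median log2 fold change of -0.28 and 0 without overlap. Lyz2, the lysozyme of myeloid cells, had the smallest p, at 475, 807 and 840.2 CPM in controls and 514, 489 and 489 CPM in treated tumours. Control 1 lay below all the treated libraries for Lyz2, and the log2 fold change was -0.51 ± 0.26 (SE). Csf1r, the receptor that sustains macrophages, was at -0.28 (95% interval -0.89 to 0.33), and Arg1, which consumes arginine, at -0.51 (95% interval -1.71 to 0.68). The median of the list was -0.00 without control 3. Control 1 was the lowest control for 16 of the 21 genes, against 34.3% of all genes.

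Neutrophil genes varied widely among the controls. Of 21 genes 14 were higher and 7 lower, with a median of 0.13. S100a8, a subunit of calprotectin, was at 89.1, 42.7 and 23.2 CPM in controls and at 80.1, 104 and 90.6 CPM in treated tumours. The treated libraries were close to control 1 and above controls 2 and 3, and the log2 fold change was 0.83 ± 0.38 (SE). Lcn2, an iron-sequestering protein of neutrophil granules and inflamed epithelium, was the only member without overlap, at 78.9, 100 and 22.4 CPM against 106, 188 and 137 CPM. Its log2 fold change was 1.10 ± 0.48 (SE). The list score was 0.65, -0.01 and -1.13 in the controls and 0.06 to 0.23 in the treated libraries. Control 3 was the lowest control for 19 of 21 genes, against 32.3% of all genes. The median was -0.11 without control 3 and 0.64 without control 1.

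Inflammatory cytokine and chemokine genes followed the neutrophil genes. Of 17 genes 14 were higher, with a median of 0.17 that was -0.04 without control 3. Ccl2, which attracts monocytes, was at 179, 55.0 and 93.1 CPM in controls and at 151, 307 and 197 CPM with the antibody, a log2 fold change of 1.00 ± 0.45 (SE). Control 1 lay within the treated range. Csf3, the growth factor of granulocytes, was at 140, 60.6 and 13.0 CPM and at 49.3, 109 and 96.0 CPM, a log2 fold change of 0.25 (95% interval -1.22 to 1.73).

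Flt3 stood apart from the other dendritic cell genes. It encodes a receptor of dendritic cell progenitors and was at 24.6, 6.38 and 7.53 CPM in controls and at 37.4, 35.6 and 30.1 CPM with anti-PD-1. All treated libraries lay above all controls, with control 1 nearest to them. Flt3 had a log2 fold change of 1.42 ± 0.48 (SE), of 2.3 without control 1 and of 1.10 without control 2. Over the 15 genes of the list 7 were higher and 8 lower, with a median of -0.08, and Flt3 was the only one without overlap. The median was 0.32, with 12 higher, without control 3 and -0.24, with 11 lower, without control 1. Clec9a and Xcr1, which mark cross-presenting dendritic cells, had log2 fold changes of -0.54 and 0.19 at low counts. Mast cell and eosinophil genes had a median of -0.08 over 11 genes, led in p by Gata2, a transcription factor of mast cells, and of -0.71 without anti-PD-1 1 or 0.21 without anti-PD-1 2.

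Vessel and stroma genes had lower means with anti-PD-1, again with much of it from a control. Of 22 endothelial genes 21 were lower, with a median log2 fold change of -0.35 and 0 without overlap. Cdh5, the cadherin of endothelial junctions, had the smallest p, at 139, 154 and 41.8 CPM in controls and at 74.4, 75.8 and 41.3 CPM in treated tumours. Control 3 was as low as the lowest treated library. Pecam1, another junction protein, was at 68.2, 114 and 67.5 CPM against 82.1, 59.8 and 51.3 CPM, a log2 fold change of -0.37 (95% interval -1.19 to 0.44). Control 2 was the highest control for 20 of the 22 genes and anti-PD-1 3 the lowest treated library for 19. Without control 2 the median was -0.04, with 14 lower and 8 higher. The pericyte and smooth muscle list behaved alike, with 9 of 10 lower, a median of -0.37 and -0.16 without control 2, and Mcam first in p.

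Fibroblast and matrix genes had a median of -0.21, with 12 of 18 lower, but of 0.05 without control 2 and 0.03 without anti-PD-1 3. Col1a1, the main chain of collagen I, was at 909.7 CPM ± 423 in controls and 658 CPM ± 291 in treated tumours (SD, n = 3), so the spread within a group exceeded the difference. Pdgfra, a receptor of fibroblasts, had the smallest p, with a log2 fold change of 0.29 (95% interval -0.06 to 0.65). The 13 genes of the TGF-beta pathway had a median of 0.13, or -0.03 without control 3, with Ltbp2, a matrix protein of that pathway, first in p at 0.52 ± 0.26 (SE).

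Genes of the tumour cells and of growth had small differences or large errors. Krt8 stood at 550.3 CPM ± 64.0 and 546 CPM ± 84.2 (SD, n = 3), a log2 fold change of -0.01 (95% interval -0.43 to 0.40). Of 13 tumour epithelium genes 10 were higher, with a median of 0.34 that was 0.01 without anti-PD-1 2, 0.02 without anti-PD-1 1 and 0.03 with skin and adipocyte scores in the model. Krt18 had the smallest p of that list, with a log2 fold change of -0.16. Epcam was at 0.34 (95% interval -1.38 to 2.07), and was negative with skin and adipocyte scores in the model. It was highest in anti-PD-1 1, at 10.6 CPM, and lowest in anti-PD-1 2, at 1.39 CPM. Those libraries also had the highest and lowest skin scores, 1.38 and -1.24, and the part of skin in the Epcam values was not tested on its own. The epithelial-mesenchymal transition list had a median of -0.08, with Fn1, fibronectin, first in p.

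Mki67, the proliferation antigen, stood at 619.8 CPM ± 82.9 and 637 CPM ± 81.8 (SD, n = 3), a log2 fold change of 0.04 (95% interval -0.30 to 0.38). Replication genes had a median of 0.03 over 16 genes, led in p by Gins2, a subunit of the replicative helicase, and mitosis genes one of -0.02 over 19. Cdk1, the kinase that drives entry into mitosis, differed from its list. It was at 153, 167 and 170 CPM in controls and at 135, 126 and 127 CPM with anti-PD-1, with every treated library below every control. Its log2 fold change was -0.34 ± 0.10 (SE), with an adjusted p of 0.999 by edgeR's quasi-likelihood test. It was the only mitosis gene without overlap.

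Metabolic and stress lists had medians between -0.04 and 0.14. The 20 hypoxia and glycolysis genes had a median of 0.14, with 18 higher, and of -0.04 without control 3. Hk2, a hexokinase, was first in p at 0.32 ± 0.18 (SE), and Vegfa, the vessel growth factor, was at 0.12 (95% interval -0.63 to 0.88). The medians were -0.04 for 18 oxidative phosphorylation genes, 0.09 for 15 heat shock and unfolded protein genes, 0.05 for 16 p53 and apoptosis genes and 0.11 for 14 immediate early genes. First in p in the last 3 of these lists were Dnajb9, Fas and Junb, with log2 fold changes of 0.35, 0.43 and 0.21.

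Genes of neighbouring tissues are given as measured facts. All 20 skin and hair follicle genes had higher means with anti-PD-1, with a median of 0.53, and anti-PD-1 1 was the highest of the treated libraries for 20 of 20 while anti-PD-1 2 was the lowest for 19. The median was -0.17 without anti-PD-1 1. Evpl, envoplakin of the cornified envelope, was the only skin gene without overlap, at 11.2 to 18.1 CPM in controls and 18.7 to 29.5 CPM in treated tumours. Skeletal muscle genes had a median of -0.42 that was 0.00 without anti-PD-1 2, with Myh1, a fast myosin, first in p. Adipocyte genes had a median of -0.07, which was 0.91 without control 2 and -0.52 without control 1, with Lep, leptin, first in p. Schwann cell and nerve genes had one of 0.14, or -0.05 without control 3. Beside the antiviral scores, anti-PD-1 1 was high for skin (1.38) and antiviral genes (0.26), and anti-PD-1 2 had the lowest skin score, -1.24, and the highest antiviral score, 0.39.

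Outside the lists, 6 of the 10 genes with the smallest p remained. Ppl, periplakin, the partner of Evpl in junctions and the cornified envelope, was at 68.3, 72.6 and 69.0 CPM in controls and at 92.5, 102 and 108 CPM with anti-PD-1. The groups did not overlap, and the log2 fold change was 0.53 ± 0.13 (SE). The skin scores of the treated libraries were 1.38, -1.24 and 0.31. The log2 fold change of Ppl lay between 0.47 and 0.58 under every alternative, among them the fit with skin and adipocyte scores. The part of skin in the Ppl values was not tested on its own. Ikbkg, which encodes NEMO, the regulatory subunit of the kinase that activates NF-kappa B, was at 48.2, 38.6 and 36.4 CPM and at 56.4, 66.0 and 55.7 CPM. Its groups did not overlap and the log2 fold change was 0.53 ± 0.13 (SE). It lies next to G6pdx on chromosome X, and reads of neighbouring genes can be hard to assign where they overlap. Rbpms, an RNA-binding protein, was at 52.7, 57.6 and 45.8 CPM and at 60.9, 84.1 and 84.2 CPM, a log2 fold change of 0.55 ± 0.14 (SE).

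Srp54c, Capn5 and Csnk1g2 complete the 10. Srp54c, a signal recognition particle subunit with near-identical copies in the mouse genome and thus an uncertain count, had a log2 fold change of 0.36 ± 0.09 (SE). Capn5, a calpain protease, had one of 0.51 ± 0.13 (SE). Csnk1g2, a casein kinase, was the only one of the 10 that was lower, at 145, 173 and 167 CPM in controls and 130.2, 125 and 133 CPM with the antibody. Its treated libraries were close together and below every control, with a log2 fold change of -0.32 ± 0.08 (SE). In each of the 10 the groups did not overlap, and each had an adjusted p of 0.999 by edgeR's quasi-likelihood test.

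Among genes with at least 5 CPM on average, 340 lay wholly above and 304 wholly below the controls; over all genes tested 804 did not overlap, 5.68%. The lowest log2 fold changes among those with at least 5 CPM on average were those of Ramp2, B4galnt4, Epha1, Cd24a and Rhoj. Epha1, an ephrin receptor kinase of epithelia, was at 64.5, 80.5 and 75.8 CPM in controls and at 36.5, 40.2 and 62.1 CPM with anti-PD-1, a log2 fold change of -0.67 ± 0.22 (SE). Cd24a, a surface glycoprotein of epithelial and myeloid cells, was at 86.5, 98.5 and 78.0 CPM and at 45.7, 55.9 and 66.6 CPM, a log2 fold change of -0.64 ± 0.25 (SE). In both the treated library nearest to the controls was anti-PD-1 3. Ramp2, a partner of the adrenomedullin receptor, and Rhoj, a small GTPase, are abundant in endothelium, and had log2 fold changes of -0.83 (95% interval -1.95 to 0.28) and -0.59 (95% interval -1.73 to 0.55). B4galnt4, a glycosyltransferase, had one of -0.69 ± 0.25 (SE). The highest, beside Flt3, were predicted genes without a known function, Gm42267, LOC102633156, Gm40814 and Gm41844. Of these, Gm42267 is annotated as a pseudogene. LOC102633156 was at 0 CPM in control 2 and had a log2 fold change of 1.68 (95% interval -2.76 to 6.11).

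The same antibody was also given with DSF, and the change with anti-PD-1 can be compared with that between combination and DSF tumours, which share no library with it. In that comparison 263 of 14144 genes were called at an adjusted p under 0.05 by edgeR's quasi-likelihood test, 1.86%, of which 227 (1.6%) were higher and 36 (0.255%) lower. The test of the difference between the changes, the interaction, called 0 genes (0.0%), with a smallest adjusted p of 0.232. An unadjusted p under 0.05 in that test was reached by 1754 genes, 7.05% of all with a more positive and 5.35% with a more negative change under DSF. DESeq2 called 235 genes in the interaction, 145 with a more positive change under DSF and 90 with a more negative one, so this result depends on the tool.

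The antiviral list had fold changes on the same side in both settings, each against its own reference group. Its median was 0.31 without DSF and 0.43 with it, where 37 of 38 genes were higher, against 46.2% of all genes, and 4 were called. Ifit2 rose with the antibody under DSF, with a log2 fold change of 0.90 and an adjusted p of 0.0409 by edgeR's quasi-likelihood test, and had 0.65 without DSF. Cmpk2 had 0.76 with DSF and 0.91 without, an interaction of -0.15 ± 0.26 (SE), and Rsad2 had 0.36 and 0.92, an interaction of -0.56 ± 0.34 (SE). Means in control, DSF and combination tumours were 34.8, 19.2 and 32.5 CPM for Cmpk2. They were 30.4, 16.9 and 31.5 CPM for Ifit2, and 28.9, 18.8 and 24.2 CPM for Rsad2. For these genes DSF tumours lay below control, and combination tumours were near or below control.

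The class II, interferon gamma and T cell lists had higher values with the antibody under DSF and medians slightly below 0 without it. Without DSF the T cell median took either sign, from -0.37 to 0.18, when a library was left out, and so did the interferon gamma median, from -0.26 to 0.11. The class II median was 1.72 with DSF, where 8 of 10 genes were called higher against 1.6% of all genes, and -0.17 without it. H2-Aa stood at 270.3 CPM ± 61.4 in DSF tumours and 868 CPM ± 81.4 in combination tumours (SD, n = 3). Its interaction was 1.91 ± 0.32 (SE) on the log2 scale, with an adjusted p of 0.232. The interferon gamma list had a median of 0.99 with DSF, where 22 of 22 genes were higher and 5 called, and an interaction above 0 in 22 of 22 genes, against 47.5% of all genes. The T cell median was 0.96 with DSF, where 1 of 24 genes was called higher against 1.6% of all genes, and -0.03 without. The T cell interaction was above 0 in 24 of 24 genes. The skin list had a median of 3.61 in combination against DSF tumours, with 10 of 20 genes called, the adipocyte list one of -3.41 with 0 of 11 genes higher, and the red cell list one of -1.24. With skin and adipocyte scores in the model the interaction reached an unadjusted p under 0.05 for 348 genes in place of 1754.

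**Figure D5:**
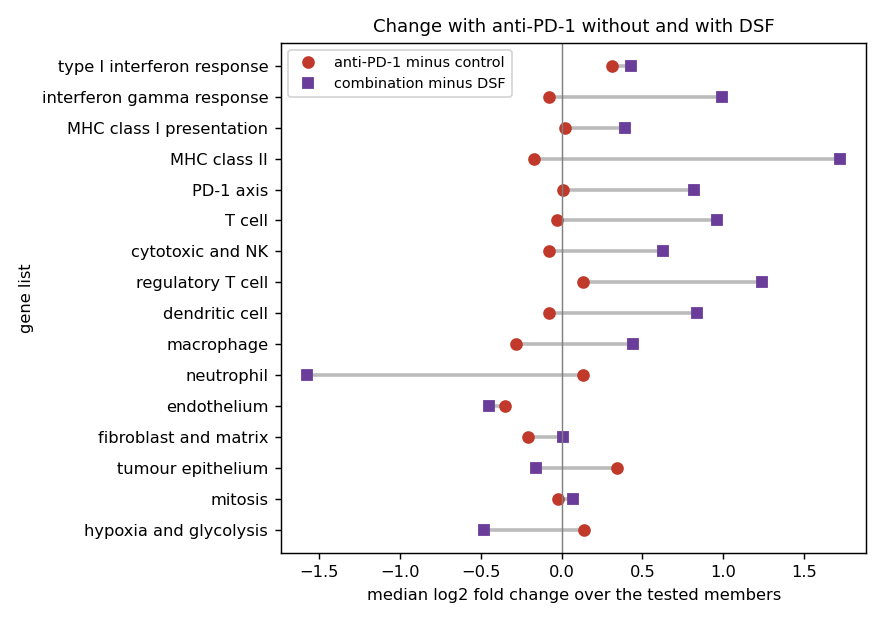
Median log2 fold change over the tested members of 16 gene lists for anti-PD-1 minus control (circles) and for combination minus DSF (squares), joined by a line for each list. The circles lie between -0.35 and 0.34, and the type I interferon list has both of its points above 0.

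Neutrophil and hypoxia genes had lower values with the antibody under DSF. The neutrophil median was -1.57 with DSF and 0.13 without it, where it was -0.11 without control 3. Retnlg, a secreted protein of mature neutrophils, was at 10.2 CPM ± 8.82 in controls and 17.4 CPM ± 4.15 with anti-PD-1 (SD, n = 3), and fell with the antibody under DSF with a log2 fold change of -3.75 and an adjusted p of 0.0409 by edgeR's quasi-likelihood test. The hypoxia and glycolysis list had a median of -0.48 with DSF, where 0 of 20 genes were higher, and of 0.14 without it, or -0.04 with 6 higher and 14 lower when control 3 was left out. Rbpms and Ikbkg had the most negative interactions of the 10 genes with the smallest p, -1.24 ± 0.20 (SE) and -0.93 ± 0.19 (SE). Their adjusted p-values were 0.232 and 0.258 by edgeR's quasi-likelihood test. Csnk1g2 and Ifit2 had positive ones, 0.30 and 0.24. All 10 were picked on the comparison without DSF, which the interaction subtracts, so a sign opposite to that change was favoured in advance.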

How the data were processed

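Per the labels' protocols, total RNA of the tumours went onto a BGISEQ-500 sequencer. The submitters' processing notes name RSEM 1.2.12, DESeq2 1.4.5, Bowtie2 2.2.5 and HISAT2 2.0.4, without roles; the genome build is not given in the sources used here. The authors deposited expected counts and FPKM for each gene, per the file headers, and a transcript table. Of the deposited expected counts 9.02% were not whole and were rounded. The table lists 0 mitochondrially encoded genes, and 12 other per-sample columns were not used. Control 1 is a column whose name is misspelt.

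All 12 libraries were fitted in 1 model (R 4.3.3, edgeR 4.0.16: filterByExpr, TMM, quasi-likelihood test, two-sided, Benjamini-Hochberg over 14144 genes), tested on simulated data first; CPM are TMM-scaled. FPKM from the authors served for levels per length and, as log2(FPKM + 1), for 1 alternative with limma 3.58.1. Other alternatives were DESeq2 1.42.0, its size factors, other filters, a robust fit, the 6 libraries alone, a replicate block, skin and adipocyte scores as covariates, and leaving out each library. The genes named are the 10 with the smallest p, the 5 highest and 5 lowest log2 fold changes among genes without overlap at 5 CPM or more, the smallest p of each of 38 lists, and 30 genes of the pathway; a few that the rule names are not reported here; further list members were added as examples after their values were seen. The comparison, its lists (577 genes, 570 in the table) and the rule were chosen with earlier results of these data known. Lists are described by counts and medians and not tested. Mx1, Mx2 and Cxcl11 were not analysed here.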

Additional observations from a re-analysis of the deposited data

How the results depend on the processing

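The count of genes called between anti-PD-1 and control was 0 under each of the 16 alternatives. The count at an unadjusted p under 0.05, 245, ranged from 136 to 944 when a library was left out, and was 538 once scores of skin and fat genes were added as covariates. The interaction with DSF gave 235 calls by DESeq2's Wald test in place of 0, and 0 to 21 when a library was left out: 21 without anti-PD-1 1, 4 without DSF 1 and 0 without any other. Replicate numbers are shared between groups. The deviations of same-numbered libraries had r = -0.089, 0.221 and 0.144 between control and anti-PD-1 and 0.201, 0.422 and 0.093 between DSF and combination; not every pair passed 0.1, so the numbers were not taken as pairs; with the number as a block 0 genes were called in the comparison and in the interaction, and 316 had an unadjusted p under 0.05. Of 608 list medians under an alternative 67 moved beyond their spread, and of 1326 values of named genes 40 did. The causes were not tested. How much of an interval comes from depth was not tested: it ran from -1.82 to 0.41 for Ifng, at few counts, and from -2.05 to 1.11 for Col1a1, at many.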

Other observations

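Red cell genes had higher means with anti-PD-1: all 4 tested members were higher, with a median log2 fold change of 1.49 and 0 without overlap. Alas2, the first enzyme of haem synthesis in red cell precursors, was at 0.548, 1.98 and 2.29 CPM in controls and at 8.36, 6.47 and 1.75 CPM in treated tumours. Anti-PD-1 1 and 2 lay above the controls for all 4 genes and anti-PD-1 3 was the lowest treated library for all 4. The alpha-globin genes Hba-a1 and Hba-a2 are near-identical, and their log2 fold changes of 1.48 and 1.5 rest on reads that the copies may share. Lymph node stroma genes had a median of 0.73 over 4 genes and of -0.03 without anti-PD-1 1.

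Predicted genes were among those with the highest fold changes, within the genes without overlap that had a mean of at least 5 CPM. Flt3, with a log2 fold change of 1.42, lay between Gm42267 at 2.0 and Gm40814 at 1.28. Gm42267 was at 5.06, 4.27 and 14.8 CPM in controls and at 24.4, 25.9 and 46.8 CPM with anti-PD-1. Gm40814 was at 17.5, 18.2 and 29.7 CPM and at 48.6, 38.4 and 72.3 CPM. In both, control 3 was the highest control and anti-PD-1 3 the highest treated library. In the DSF group they ranged from 2.77 to 133 CPM and from 11.9 to 167 CPM, and in the combination group from 3.97 to 5.83 CPM and from 15.3 to 20.1 CPM, so the DSF libraries alone spanned a wider range than the 6 libraries of the comparison. Mpo, myeloperoxidase of neutrophil granules, had the lowest log2 fold change of the neutrophil list, -1.79, with 4.32 CPM in control 1 and 0.481 to 0.765 CPM in the other 5 libraries.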
